A study of Mus musculus with 6 samples.

Results

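Cardiac jelly is the hyaluronan-rich matrix between the muscle wall and the inner lining of the embryonic heart, and 10 genes of its making and turnover were followed in 6 mouse hearts. They were the hyaluronan synthase genes Has1, Has2 and Has3, the proteoglycan gene Vcan, the link protein gene Hapln1, the receptor gene Cd44, the protease genes Adamts1, Adamts5 and Adamts9, and the hyaluronidase gene Hyal2. They were chosen by name, with earlier results of these data known. Every probe set annotated to 1 of them alone was taken, which gave 29 of 45037 probe sets and 10 of 18193 named genes. A probe set is a group of short probes on the array that reads 1 transcript or part of it.

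The hearts came from C57B6 mice, 3 labelled EphB4 mutant and 3 labelled wild type, and each RNA was hybridised to its own Affymetrix mouse expression array. EphB4 is a receptor tyrosine kinase of endothelial cells that binds ephrin-B2. The sources used here do not give the kind of mutation, whether it was carried in 1 or both copies, the age of the mice or their sex. Sample descriptions opened with the letters eM for mutant 3 and wild-type 3, and with eI for mutants 1 and 2 and wild-type hearts 1 and 2; what the letters mean was not stated. Values are log2 intensities that the authors normalized with RMA, so a difference of 1 is a doubling on this scale. Levels of different probe sets cannot be set against each other.

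Hyaluronan is a long sugar chain that synthases extrude from the cell membrane. Versican, the product of Vcan, binds it through its amino-terminal end, and link proteins such as Hapln1 lock the pair together, while ADAMTS proteases cut versican and hyaluronidases cut hyaluronan. In mice, loss of Has2 or of Vcan leaves the heart without cardiac jelly and endocardial cushions, and removal of the jelly accompanies the maturing of the trabeculae.

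The hearts differed far more by letters than by genotype. The first principal component of the 27022 tested probe sets held 60.4% of the variance and placed the eM hearts at 52.6 (mutant 3) and 34.1 (wild-type 3), against -24.3 to -17.9 for the eI hearts. Wild-type 1 stood apart on the second component, at 33.8 against -21.9 to 2.68 in the other hearts, and had a lower upper quartile (8.05 against 8.11 to 8.17). Beta-actin control probes near the 3′ end of the transcript, set against those near its 5′ end as a sign of RNA quality, gave a log2 difference of 0.77 and 0.51 in the eM hearts and 0.28 to 0.41 in the eI hearts. Its part in the results below was not tested. Mutants 1 and 3 had low Xist (6.73 and 6.78 against 11.51 to 12.33 in the other hearts), so sex is partly confounded with genotype. The 10 heart muscle markers averaged 10.65 to 14.68 over the hearts, far above the array medians of 5.89 to 6.01, as a check of the labelled tissue.

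The eM hearts had more versican, link protein, Has2, Cd44 and Adamts9 signal than the eI hearts, each at 1 or more probe sets. With genotype in the fit, limma called 8 of the 20 tested probe sets of the 10 genes higher in eM hearts (40%) and 0 lower, at an adjusted p under 0.05. Over all tested probe sets, 6.75% were called higher and 4.94% lower. Because the genes were chosen with earlier results of these data known, these shares are a description and no independent comparison. A probe set was tested if its mean over the 6 hearts was at least 5.38, which left out 9 of the 29, among them the only one of Has3. The calls fell on 5 genes: all 3 tested probe sets of Vcan, 2 of 3 of Adamts9, 1 of 2 of Has2, 1 of 2 of Cd44 and 1 of 4 of Hapln1. The calls depended on single hearts, eM and eI alike, and the eM group held only 2 hearts. Without mutant 3, 0 of the 20 passed (limma called 1 of all 27022 probe sets, and the smallest adjusted p among the 8 was 0.0669), without wild-type 3 there was 1, without mutant 2 there were 2 and without mutant 1 there were 4. Leaving out 1 of the wild-type eI hearts raised the count to as many as 12. The 8 differences kept their sign whichever heart was left out. That was fixed in advance, because both eM hearts lay above every eI heart at each of the 8.

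**Figure D1:**
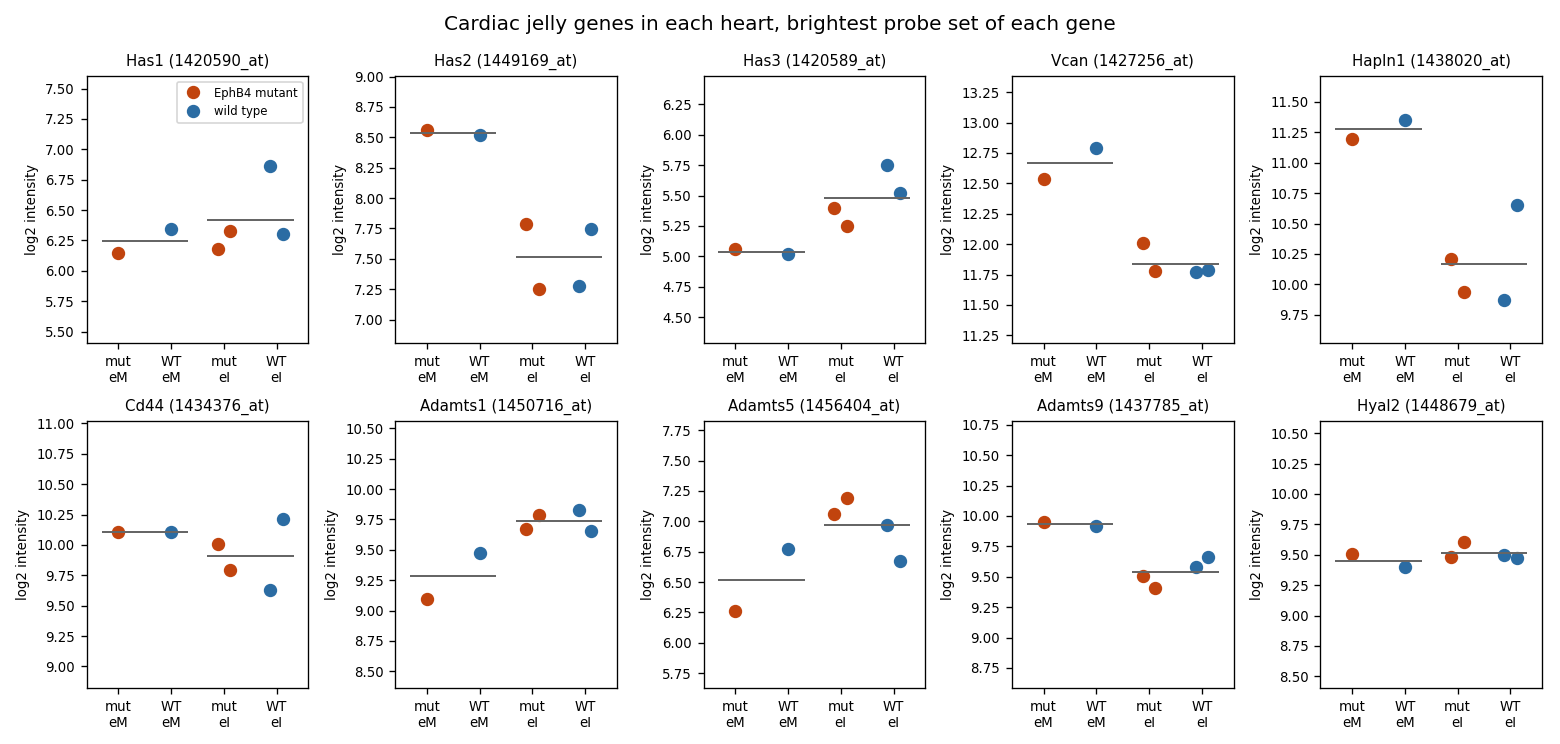
Log2 intensity of each cardiac jelly gene at its brightest probe set in each of the 6 hearts, EphB4 mutant in orange and wild type in blue, by the letters eM and eI; grey lines are the means of the 2 eM and 4 eI hearts, and every panel spans the same log2 range. Vcan, Has2, Hapln1 and Adamts9 lie higher in both eM hearts than in every eI heart, and the genotypes overlap in every panel.

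Versican gave the clearest difference. Its brightest probe set, 1427256_at, read 12.54 in mutant 3 and 12.79 in wild-type 3, against 12.01 and 11.78 in mutants 1 and 2 and 11.77 and 11.79 in wild-type 1 and 2. Both eM hearts lay above every eI heart, and the eI hearts lay close together (11.84 ± 0.11, SD, n = 4). The difference was 0.83 ± 0.12 (SE), or 1.77-fold, with a limma adjusted p = 0.0136. The other tested probe sets gave larger differences. Probe set 1421694_a_at read 11.39 and 11.65 in the eM hearts and 10.05 to 10.45 in the eI hearts, a difference of 1.27 ± 0.15 (2.41-fold, limma adjusted p = 0.00729). Probe set 1427257_at, which carries the same accession as the brightest one, read 10.96 and 11.19 against 9.11 to 9.61, a difference of 1.67 ± 0.10 (3.18-fold, limma adjusted p = 0.00238). The 95% confidence intervals of these 2 probe sets of 1 accession, 1.42 to 1.92 and 0.53 to 1.13, did not meet, so the size of the versican difference depends on which probes read it. The same differences within genotype were 0.64, 1.14 and 1.74 in mutant hearts and 1.01, 1.40 and 1.60 in wild-type hearts.

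The other 5 Vcan probe sets were dim, with means of 3.29 to 4.22, and were not tested. Among them 1447887_x_at was higher in both eM hearts, at 3.88 and 3.50 against 2.93 to 3.19, and 1459767_x_at was lower, at 4.04 and 4.11 against 4.17 to 4.57. The remaining 3 overlapped between eM and eI hearts, with differences of -0.05 to 0.20. Versican is made in several splice forms that differ in their sugar-carrying region, and the files do not say which form each probe set reads.

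Hapln1, whose protein clamps versican to hyaluronan, was higher in the same hearts as Vcan. At 1438020_at it read 11.20 and 11.35 in the eM hearts, mutant 3 first, against 10.21 and 9.94 in mutants 1 and 2 and 9.87 and 10.65 in wild-type 1 and 2. The eM hearts were again above all eI hearts, but the eI hearts were spread over 0.78. The difference was 1.11 ± 0.22 (SE), or 2.15-fold (limma adjusted p = 0.0279). Probe sets 1426294_at and 1426295_at also showed no overlap, with differences of 0.92 ± 0.26 and 0.98 ± 0.27 that did not pass (limma adjusted p = 0.0756 and 0.069). Probe set 1421633_a_at overlapped, at 8.996 and 9.52 against 8.55 to 9.18, with a difference of 0.47 ± 0.20 (limma adjusted p = 0.174).

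Hapln1 and Vcan are neighbours on mouse chromosome 13 in the RefSeq gene table (assembly GRCm38.p6), with 1 pseudogene and 0 protein-coding genes between them. The 250 bases before the start of both genes, of the receptor gene Cd44 and of the protease gene Adamts9 are shown because these genes were called higher in the same hearts. Of the 10 genes, 7 had an entry in the RefSeq promoter table; Has2, Has3 and Adamts5 had none. Sequences run 5′ to 3′ on the gene's strand, and capitals mark matches to any of 9 motifs on either strand: TATAAA (the TATA box), GGGCGG (the GC box), CCAAT (the CCAAT box), CANNTG (the E-box), NGATAA (the GATA motif), AGGTGT (the T-box motif), GGAATG (the TEAD motif), TGANTCA (the AP-1 motif) and CTTTGA (the TCF motif).
Vcan, GRCm38.p6 chr13:89742513-89742762, minus strand: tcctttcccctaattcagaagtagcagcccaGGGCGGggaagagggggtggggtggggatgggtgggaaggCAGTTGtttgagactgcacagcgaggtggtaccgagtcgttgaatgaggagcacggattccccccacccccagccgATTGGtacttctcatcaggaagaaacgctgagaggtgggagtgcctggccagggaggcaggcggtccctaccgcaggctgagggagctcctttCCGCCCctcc
Hapln1, GRCm38.p6 chr13:89540386-89540635, plus strand: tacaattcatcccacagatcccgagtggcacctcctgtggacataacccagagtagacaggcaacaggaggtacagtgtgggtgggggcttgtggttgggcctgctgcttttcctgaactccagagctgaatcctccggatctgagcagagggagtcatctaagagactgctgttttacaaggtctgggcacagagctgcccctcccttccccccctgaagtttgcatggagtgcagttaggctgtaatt
Cd44, GRCm38.p6 chr2:102901666-102901915, minus strand: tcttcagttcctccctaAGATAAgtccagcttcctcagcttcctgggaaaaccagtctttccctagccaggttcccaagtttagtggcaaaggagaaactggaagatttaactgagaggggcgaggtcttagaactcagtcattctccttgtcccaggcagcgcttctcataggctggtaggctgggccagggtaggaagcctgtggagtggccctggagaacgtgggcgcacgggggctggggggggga
Adamts9, GRCm38.p6 chr6:92943535-92943784, minus strand: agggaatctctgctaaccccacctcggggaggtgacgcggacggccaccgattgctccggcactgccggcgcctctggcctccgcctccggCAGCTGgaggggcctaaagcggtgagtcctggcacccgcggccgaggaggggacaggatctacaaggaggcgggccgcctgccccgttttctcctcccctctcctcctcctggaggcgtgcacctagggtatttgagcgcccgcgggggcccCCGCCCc

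The Vcan window held 2 GC boxes, 1 CCAAT box and 1 E-box, and the Adamts9 window 1 GC box and 1 E-box. In both, a GC box on the opposite strand lay just before the start, 10 to 5 bases away in Vcan and 7 to 2 in Adamts9. The Cd44 window held 1 GATA motif and the Hapln1 window 0 of the 9 motifs. Of 32851 promoter windows of this length, 32.7% held a GC box, 33.8% a CCAAT box, 66.2% an E-box and 22.5% a GATA motif. The share of G and C bases was 62.4% for Vcan, 54.4% for Hapln1, 56.4% for Cd44 and 71.2% for Adamts9, beside a median of 52.4% over all windows. CG pairs numbered 10 for Vcan, 2 for Hapln1, 5 for Cd44 and 22 for Adamts9, beside a median of 6. A match is a description of these letters alone.

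Has2, the main hyaluronan synthase of the embryonic heart, was the only synthase called. Its brighter probe set 1449169_at read 8.56 in mutant 3 and 8.52 in wild-type 3, against 7.78 and 7.25 in mutants 1 and 2 and 7.27 and 7.75 in wild-type 1 and 2. The eM hearts stood clear of the eI hearts, and the difference was 1.02 ± 0.19 (SE), or 2.03-fold (limma adjusted p = 0.0253). It was 1.04 in mutant and 1.01 in wild-type hearts. The second probe set, 1418678_at, read 7.28 and 7.40 against 5.97 to 6.81, also without overlap, a difference of 0.89 ± 0.25 that did not pass (limma adjusted p = 0.0736).

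The other synthases were lower or level in the eM hearts. Has3 read 5.06 in mutant 3 and 5.02 in wild-type 3, against 5.40 and 5.25 in mutants 1 and 2 and 5.75 and 5.52 in wild-type 1 and 2, so the eM hearts lay below all eI hearts. At a mean of 5.33 it was just under the filter, and when all probe sets were kept its difference of -0.44 did not pass (limma adjusted p = 0.109). Has1 read 6.15 and 6.35 in the eM hearts against 6.18 to 6.86 in the eI hearts, with wild-type 1 the highest. The groups overlapped, and the difference was -0.17 ± 0.16 (limma adjusted p = 0.536).

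Cd44, a cell-surface receptor for hyaluronan, gave different answers at its probe sets. At 1423760_at the eM hearts read 8.98 and 9.25, above the 8.10 to 8.83 of the eI hearts, a difference of 0.77 ± 0.16 (1.71-fold, limma adjusted p = 0.0337), a call that was lost without the genotype term (adjusted p = 0.0507). At the brighter 1434376_at the values were 10.11 in both eM hearts and 9.63 to 10.21 in the eI hearts, a difference of 0.20 ± 0.17 (limma adjusted p = 0.5). Its 2 dim probe sets, not tested, differed by -0.05 and -0.25. Hyal2, a hyaluronidase tethered to the cell surface, was the flattest member, at 9.50 and 9.40 in the eM hearts and 9.47 to 9.60 in the eI hearts. Its difference was -0.06, with a 95% confidence interval of -0.28 to 0.15.

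**Figure D2:**
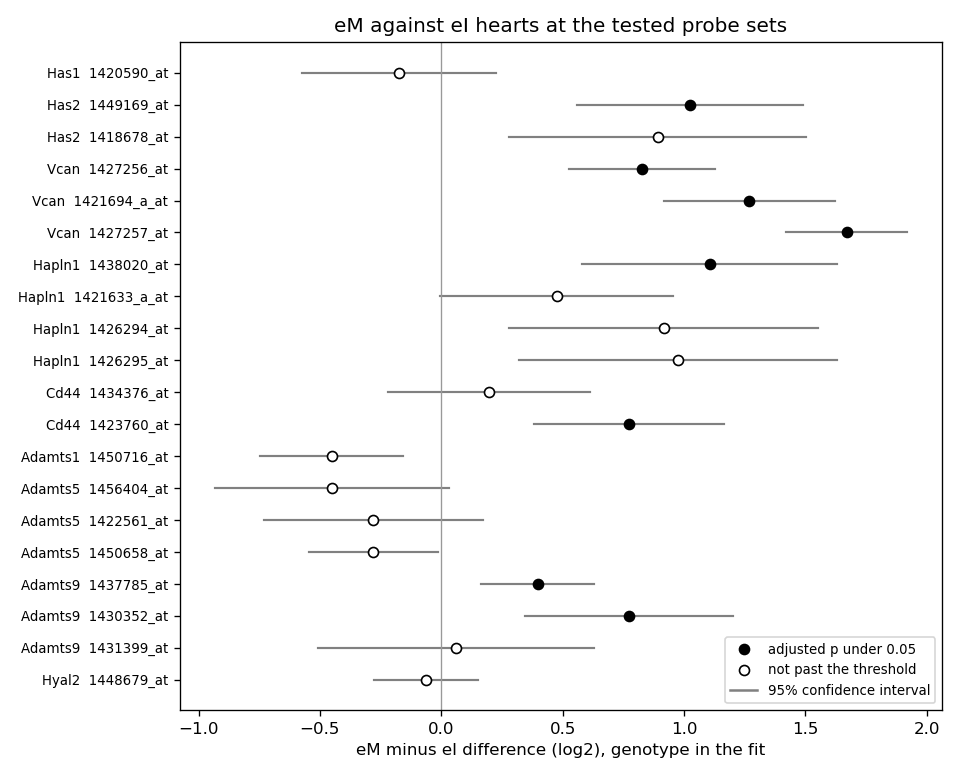
Difference between eM and eI hearts (log2, genotype in the fit) at the 20 tested probe sets, with 95% confidence intervals; filled points passed an adjusted p of 0.05 in limma over 27022 probe sets. The 8 filled points, of Has2, Vcan, Hapln1, Cd44 and Adamts9, all lie to the right of 0, while Adamts1 and Adamts5 lie to its left.

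The versican-cutting proteases did not move as one. Adamts9 was higher in eM hearts at 1437785_at, with 9.95 in mutant 3 and 9.92 in wild-type 3 against 9.50 and 9.41 in mutants 1 and 2 and 9.58 and 9.66 in wild-type 1 and 2. The difference was 0.40 ± 0.10 (SE; 1.32-fold, limma adjusted p = 0.0484). At 1430352_at it was 0.77 ± 0.18 (1.71-fold, limma adjusted p = 0.0421), with 7.72 and 7.64 against 6.56 to 7.15. These calls were the least firm: the adjusted p was 0.0775 and 0.0543 with no filter on dim probe sets, and both were also lost when arrays were centred on their medians. The dim 1431399_at differed by 0.06 ± 0.23.

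Adamts1, a protease gene expressed in the lining of the mouse heart, lay the other way. It read 9.09 in mutant 3 and 9.47 in wild-type 3, against 9.67 and 9.79 in mutants 1 and 2 and 9.82 and 9.65 in wild-type 1 and 2. The eM hearts were below all eI hearts, which held together (9.73 ± 0.08, SD, n = 4), and mutant 3 was the lowest. The difference of -0.45 ± 0.12 (SE) did not pass (limma adjusted p = 0.0638). It passed in 3 of 13 alternative fits. These were the stricter filter (limma adjusted p = 0.0486), a trended and robust variance (adjusted p = 0.0417) and the fit without wild-type 2 (adjusted p = 0.0401). The 3 tested probe sets of Adamts5, another protease of versican, had differences of -0.45, -0.28 and -0.28, with limma adjusted p of 0.155 to 0.372. Mutant 3 was the lowest heart at each of them, at 6.26 against 6.67 to 7.19 in the other hearts for 1456404_at, while wild-type 3 lay within the range of the eI hearts at 2 of the 3. Its dim probe set 1456969_at, not tested, differed by -0.11.

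The eI hearts differed among themselves at Has2 and Hapln1. Mutant 2 and wild-type 1 were the lowest eI hearts at 2 of 2 tested probe sets of Has2 and 4 of 4 of Hapln1, for example at 7.46 and 7.11 for Hapln1 1426295_at, against 7.69 in mutant 1 and 8.12 in wild-type 2. They were also the lowest at 2 of 3 of Vcan, 1 of 2 of Cd44, 1 of 3 of Adamts9 and 0 of the 6 of the other genes, which makes 10 of 20, beside 24.1% of all tested probe sets. Over all tested probe sets, the deviations of mutant 2 and wild-type 1 from their genotype means correlated at 0.486. The other mutant and wild-type eI hearts correlated at 0.182 to 0.466. Each genotype mean includes an eM heart, which pushes all these values up, so 0.486 does not show that mutant 2 and wild-type 1 are alike. Without wild-type 1, the heart that stood apart, the Hapln1 1438020_at difference was 0.94 (limma adjusted p = 0.0173) and that of Has2 1449169_at 0.93 (adjusted p = 0.0304).

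**Figure D3:**
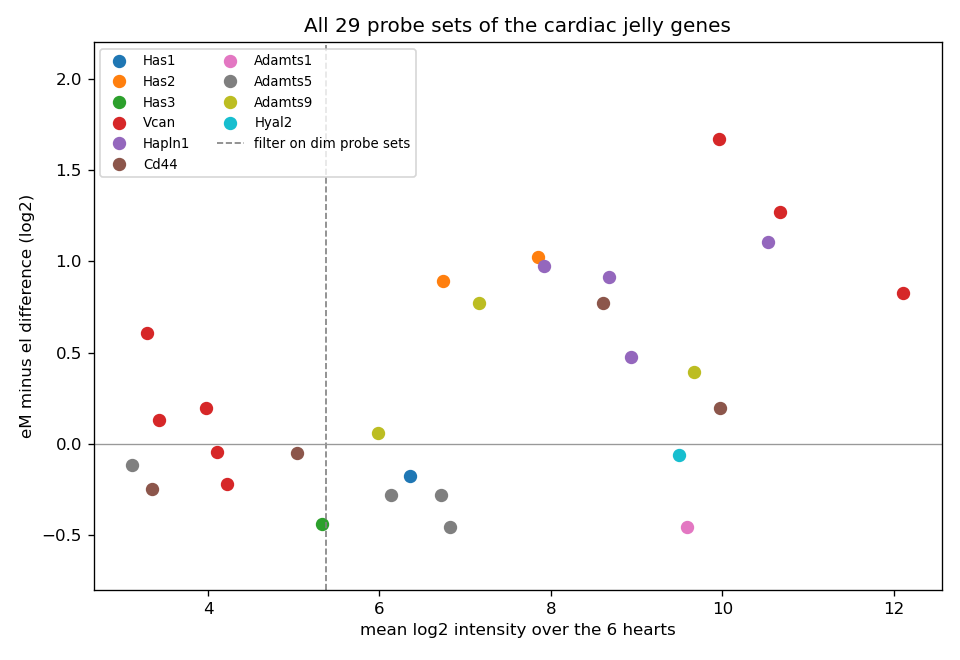
Difference between eM and eI hearts (log2) against the mean log2 intensity over the 6 hearts for all 29 probe sets, coloured by gene; the dashed line is the filter on dim probe sets at 5.38. Vcan probe sets left of the line differ by -0.22 to 0.61 and those right of it by 0.83 to 1.67.

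Genotype changed none of the 10 genes past the threshold. In limma, 0 of the 20 tested probe sets and 0% of all 27022 passed, with an adjusted p of 0.9999 at each of the 20. At an unadjusted p under 0.05 there were 0 of 20, beside 316 of all tested probe sets (1.17%). No tested probe set of the 10 genes separated the genotypes without overlap (0 of 20), beside 4.67% of all tested probe sets. Among so few probe sets, 0 is near that share. Two-sided exact permutation p-values ran from 0.2 to 1, and 3 hearts against 3 allow nothing below 0.1. The largest differences were -0.37 at Cd44 1423760_at and -0.32 at Vcan 1427257_at.

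These counts and the intervals of the paragraph after this one come from the fit without a block for same-numbered hearts. Whether the numbers pair the hearts cannot be told. Between same-numbered hearts, Vcan 1427257_at differed by -0.28, -0.46 and -0.22 (mutant minus wild type, pairs 1 to 3), and Cd44 1423760_at by -0.18, -0.65 and -0.27. Both were lower in the mutant in all 3 pairs, as were 9.62% of all tested probe sets, and the other 18 of the 20 had no common direction over the pairs. With the replicate number as a block in limma, the Vcan difference had a 95% confidence interval of -0.59 to -0.05 (unadjusted p = 0.0253) and the Cd44 difference one of -0.68 to -0.05 (unadjusted p = 0.0292). The adjusted p was 0.9997 for both, and 3.49% of all tested probe sets had an unadjusted p under 0.05 in that fit. With the letters as the block the unadjusted p was 0.0154 for Vcan and 0.0518 for Cd44, beside 4.37% of all tested probe sets under 0.05.

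The intervals were widest where the eM and eI hearts differed most. Vcan 1427256_at averaged 12.11 ± 0.39 in mutant and 12.12 ± 0.58 in wild-type hearts (SD, n = 3 each), a difference of -0.01 with a 95% confidence interval of -0.79 to 0.77. Has2 1449169_at averaged 7.86 ± 0.66 in mutant and 7.85 ± 0.63 in wild-type hearts, a difference of 0.02 (-0.98 to 1.02). Hapln1 1438020_at averaged 10.45 ± 0.66 and 10.63 ± 0.74, mutant first, a difference of -0.18 (-1.27 to 0.91). For Hyal2, level across the hearts, the interval was -0.15 to 0.30. Has1 had the smallest unadjusted p, at 6.22 ± 0.10 in mutant and 6.504 ± 0.31 in wild-type hearts, a difference of -0.29 (limma p = 0.136, two-sided exact permutation p = 0.2). Its values were 6.18, 6.33 and 6.15 in the mutants and 6.86, 6.31 and 6.35 in the wild-type hearts, so most of the gap came from wild-type 1.

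**Figure D4:**
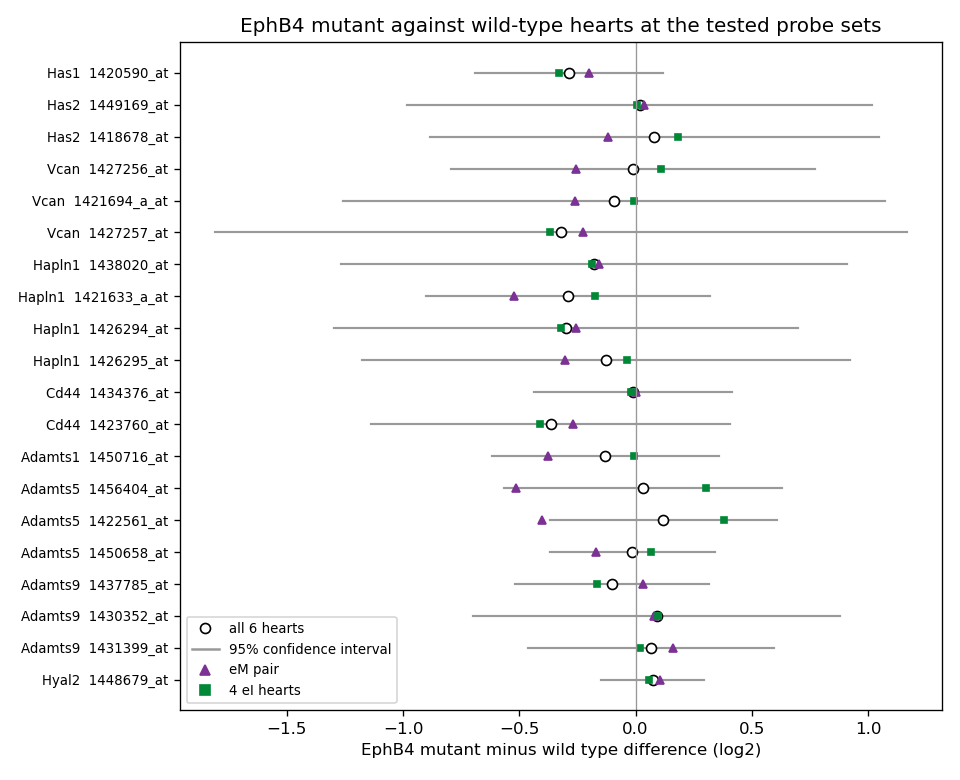
Difference between EphB4 mutant and wild-type hearts (log2) at the 20 tested probe sets: open circles and lines give all 6 hearts with 95% confidence intervals, triangles the eM pair and squares the 4 eI hearts. Every interval, from the fit with neither the letters nor a replicate block, includes 0. With the replicate block, not drawn, the intervals of Vcan 1427257_at and Cd44 1423760_at lay below 0. The eM pair and the eI hearts fall on opposite sides of 0 at 7 of the 20 probe sets.

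Within eM and eI hearts the genotype differences stayed small at most probe sets. They ran from -0.41 to 0.38 in the 4 eI hearts and from -0.52 to 0.16 in the eM pair, which held 1 heart per genotype. All 3 tested probe sets of Adamts5 were higher in the mutant among eI hearts (0.30, 0.38 and 0.07) and lower in the mutant in the eM pair (-0.51, -0.40 and -0.17). An interaction term in limma called 0 of the 20 (adjusted p from 0.909 to 0.997), with 1 heart per genotype in eM. For Vcan 1427256_at the difference was 0.11 in eI and -0.26 in eM, and for Has2 1449169_at 0.01 and 0.04.

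Other genes of the same pathway were described by 3 lists. Of 75 genes with a probe set, 64 were tested; 5 were called higher (7.81%) and 2 lower (3.12%) in eM hearts, beside 4.3% higher and 5.7% lower among all 13572 genes, each read by its brightest probe set. Genotype called 0 of the 64 in limma, and 1 had an unadjusted p under 0.05. The median eM minus eI difference of the 64 was -0.08, beside -0.03 over all genes tested and 0.20 over the 9 tested cardiac jelly genes. In place of 7 companion genes, limma called 0 without mutant 2 and 3 without mutant 1. It called as many as 10 without 1 of the wild-type eI hearts. Leaving out mutant 3 or wild-type 3 left only 1 eM heart.

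Among the 21 tested genes of hyaluronan supply, turnover and binding, 1 was called. Gfpt2, an enzyme of the hexosamine pathway that feeds hyaluronan synthesis, read 8.07 in mutant 3 and 7.82 in wild-type 3, against 7.02 to 7.22 in the eI hearts, a difference of 0.80 ± 0.12 (SE; limma adjusted p = 0.0126). The hyaluronidase gene Cemip2 differed by -0.33 (limma adjusted p = 0.0619), the hyaluronan receptor genes Layn by -0.27 and Lyve1 by 0.31, Itih5, of a family whose heavy chains attach to hyaluronan, by 0.28, and the hyaluronan-binding motility gene Hmmr by 0.15, none past the threshold. The median of this list was 0.06.

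Of 21 tested genes of chondroitin sulfate proteoglycans and their synthesis, 1 was higher and 1 lower. Cspg4, the NG2 proteoglycan, read 8.86 and 9.08 in the eM hearts against 8.0001 to 8.45 in the eI hearts, a difference of 0.80 ± 0.12 (SE; limma adjusted p = 0.013). Chst11, which sulfates chondroitin chains, read 7.93 and 8.13 against 8.69 to 8.78, a difference of -0.71 ± 0.10 (limma adjusted p = 0.0104). Chpf, a chain polymerising factor, and Csgalnact1, which starts chondroitin chains, differed by 0.37 and -0.37 without passing. The list's median was -0.03.

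In the list of other ADAMTS proteases, their inhibitors and versican partners, 3 of 22 tested genes were called higher and 1 lower. The difference was above 0 for 5 of the 22, beside 6087 of 13572 among all genes, with a median of -0.28. The 4 calls were Fbn2, a microfibril gene (0.56 ± 0.11, SE), Mmp14, a membrane metalloprotease (0.61 ± 0.12), Fbln1, a fibulin that binds versican and serves ADAMTS1 as a cofactor (0.55 ± 0.13), and Adamtsl1, a protein related to the ADAMTS proteases without their catalytic domain (-0.52 ± 0.09). Their limma adjusted p ran from 0.0213 to 0.0421. Fbln1 read 10.97 and 10.67 in the eM hearts against 10.16 to 10.41 in the eI hearts. Timp3, an inhibitor of these proteases, differed by -0.24 (limma adjusted p = 0.286), at 8.91 in mutant 3 and 9.32 in wild-type 3 against 9.23 to 9.49.

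**Figure D5:**
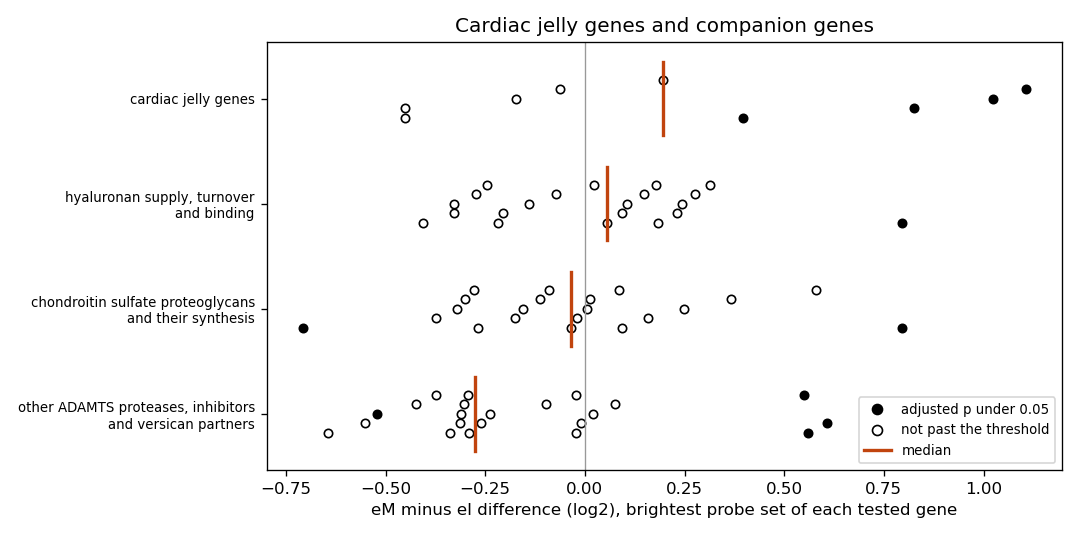
Difference between eM and eI hearts (log2) at the brightest probe set of each tested gene, for the cardiac jelly genes (9 tested) and 3 companion lists (21, 21 and 22 tested); filled points passed an adjusted p of 0.05 in limma and orange bars are medians. The medians are 0.20, 0.06, -0.03 and -0.28 in the order drawn.

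Markers of the cell types that make or hold cardiac jelly also moved with the letters, and their part in the differences above was not tested. In whole hearts, fewer cells of a type and less RNA per cell cannot be told apart. The 8 cushion and valve mesenchyme markers were split, with 4 differences above 0. Sox9 (0.72, limma adjusted p = 0.0169) and Msx1 (0.53, adjusted p = 0.0344) were called higher in eM hearts and 0 were called lower. Tbx2 differed by 0.71 and Tbx20 by 0.34, not called, each with both eM hearts above all eI hearts. Twist1 differed by -0.14, with overlap. Postn differed by -1.47, Prrx1 by -0.81 and Snai2 by -0.73, each with both eM hearts below all eI hearts. For Postn, Prrx1 and Snai2 in that order, the differences were -2.34, -1.21 and -1.30 within mutant hearts and -0.59, -0.41 and -0.15 within wild-type hearts. The summed level of the 8 markers was 12.20 and 12.76 in the eM hearts and 12.61 to 12.99 in the eI hearts.

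Of 9 endocardial and endothelial markers 0 were called higher and 2 lower, Emcn (-1.18) and Egfl7 (-0.73), with summed levels of 12.66 and 12.81 against 13.10 to 13.19. Pecam1 (0.41), Kdr (0.28) and Nfatc1 (0.25) differed the other way without passing. Of 5 epicardial markers Wt1 (0.94) and Tbx18 (0.69) were called higher, and Upk3b and Bnc1 differed by 0.0027 and 0.037. Aldh1a2 differed by -0.82 (-1.44 within mutant and -0.19 within wild-type hearts), with both eM hearts below all eI hearts. The summed level of the 5 markers was 12.08 and 12.11 against 11.42 to 12.09. Fibroblast and collagen markers were called lower at 2 of 7 (12.91 and 13.55 against 13.74 to 14.22), and leukocyte markers at 3 of 6 tested (9.91 and 10.33 against 10.77 to 11.00), a class that also expresses Cd44. Heart muscle markers had summed levels of 17.36 and 17.40 against 17.32 to 17.39, with 1 of 10, Myh6, called higher.

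Markers of blood and liver moved with the letters too. All 3 erythroid markers differed below 0, with a median of -1.10, and Alas2 (-1.97, limma adjusted p = 0.0169) and Hba-x (-1.10, adjusted p = 0.0255) were called lower. Their summed level was 14.26 and 14.29 in the eM hearts and 14.67 to 15.38 in the eI hearts. All 5 liver markers differed below 0, with a median of -1.06 and summed levels of 8.12 and 8.35 against 9.45 to 12.41. Afp, the fetal liver and yolk sac alpha-fetoprotein gene, was called lower, with a difference of -5.83 (limma adjusted p = 0.0197), at 3.03 in mutant 3 and 3.81 in wild-type 3 against 7.77 to 11.83 in the eI hearts, with wild-type 2 the highest. Their part in the differences of the cardiac jelly genes was not tested.

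The genes whose profiles lay closest to the 3 most variable members over the 6 hearts were found by the root mean square difference of centred log2 values. For Vcan these were Lrp1, a large endocytic receptor (0.0621), Bmpr1b, a BMP receptor (0.0731), and Phip, which encodes a bromodomain protein (0.0797). For Has2 they were the collagen gene Col12a1 (0.095), the muscle coactivator gene Myocd (0.103) and Ctnnd2, a delta-catenin gene (0.108). For Hapln1 they were Dbt, a mitochondrial enzyme gene (0.123), Ctnnd2 (0.142) and Lgi2 (0.156). Since they were chosen for likeness to profiles that are high in eM hearts, their own eM minus eI differences, 0.76 to 1.28, follow from the choice.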

How the data were processed

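RNA of 6 mouse hearts was hybridised to Affymetrix mouse expression arrays, 1 for each heart, per the labels. The submitters' processing notes name RMA, without a version, as the step by which the authors turned scans into the deposited log2 intensities (2.42 to 14.79). RMA's summary leaves no background per probe set. Of 45101 probe sets, 64 controls were left out, 34945 named 1 gene, 932 several and 9160 none here, by the platform annotation. Of the gene IDs, 34754 matched the RefSeq table (GRCm38.p6) and 0 symbols changed. Probe sets in the lowest 40% by mean were left out, which left 27022.

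Genotypes, and eM against eI with genotype in the fit, were fitted by limma (version 3.58.1, under R 4.3.3; two-sided, Benjamini-Hochberg over all tested probe sets, threshold 0.05), after a test on simulated data. Intervals are 95% intervals from limma; single probe sets had exact permutation tests. The number of arrays limits the precision. Members, lists and tests were chosen with earlier results of these data known.

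The 10 genes were always named; companions were the 4 of smallest eM against eI p per list plus Timp3, Fbln1, Hmmr and Lyve1; look-alikes were the 3 closest genes to the 3 members of widest range. Marker genes named include some that were called and some that were not.

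Groups and numbers came from titles. Same-numbered mutant and wild-type hearts correlated in their deviations from the genotype means (r = 0.182, 0.363 and 0.74 over tested probe sets). Differently numbered eI hearts correlated more than same-numbered eI hearts, at 0.466 and 0.486. Number 3 is also the eM pair, so whether the numbers pair the hearts cannot be told. Alternatives were a replicate block, the letters as a block, other filters, normalizations and variance settings, genes by brightest probe set, eI hearts alone, no genotype term, and each heart left out. Python 3.11.15 and its package matplotlib 3.10.9 made the plots.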

Additional observations from a re-analysis of the deposited data

Results flagged for a closer look

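Among the 4 eI hearts, mutant 1 stood apart at Vcan 1427256_at. It read 12.01, while the other eI hearts read 11.77 to 11.79, so its gap took 0.94 of the whole range, above Dixon's 95% critical value for 4 samples. All 29 probe sets were looked at this way, and chance flags about 1 in 20 such groups. Both eM hearts, at 12.54 and 12.79, still lay above mutant 1.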

How the results depend on the processing

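With the replicate block, limma called 0 of the 20 probe sets of the cardiac jelly genes and 0 companion genes between the genotypes, as it did without the block and under every other alternative run. Most genotype differences lay near 0 and changed sign when single hearts were left out. Over the 6 fits that each left out 1 heart they ran from -0.33 to 0.35 (Has2 1449169_at), -0.29 to 0.43 (Has2 1418678_at), -0.23 to 0.33 (Vcan 1427256_at), -0.47 to 0.37 (Vcan 1421694_a_at), -0.90 to 0.21 (Vcan 1427257_at), -0.55 to 0.19 (Hapln1 1438020_at), -0.56 to 0.24 (Hapln1 1426295_at), -0.19 to 0.10 (Cd44 1434376_at), -0.27 to 0.082 (Adamts1), -0.14 to 0.32, -0.022 to 0.34 and -0.13 to 0.12 (Adamts5 1456404_at, 1422561_at and 1450658_at), and -0.26 to 0.0053, -0.19 to 0.35 and -0.15 to 0.29 (Adamts9 1437785_at, 1430352_at and 1431399_at). Quantile normalization gave -4.444e-05 for Has2 1449169_at and -0.0013 for Adamts5 1456404_at, and the eI hearts alone gave 0.11 for Vcan 1427256_at and 0.065 for Adamts5 1450658_at. Between eM and eI hearts the 8 calls became 0 to 12 of 20 with 1 heart left out, and those of companion genes 0 to 10. By genes, each read by its brightest probe set, 4 of 9 were called, and Cd44, read by 1434376_at, was not. Without the genotype term 12 companion genes were called, and the cause was not tested. Leaving out single hearts moved Adamts5 1422561_at between -0.67 and 0.11 and Adamts9 1431399_at between -0.12 and 0.26, neither called. All 8 calls were kept with the stricter filter and with trended, robust variance, 7 with quantile normalization and 6 with no filter or median centring, where the calls lost were those of Adamts9. The table holds no background signal, and for the letters no replicate block could be had, because number 3 is the eM pair.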

Other observations

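B4galt7, which adds the first galactose of the linker that joins chondroitin chains to proteoglycans, was the companion gene of smallest genotype p. It read 7.20, 7.11 and 6.85 in mutant hearts and 6.43, 6.58 and 6.84 in wild-type hearts, without overlap, a difference of 0.43 that limma did not call (unadjusted p = 0.0248). The difference was 0.64 among the eI hearts and 0.0079 in the eM pair. The gene was chosen after its values were seen.

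Of the dim Vcan probe sets, 1447586_at was lower in all mutant hearts, at 3.74, 4.03 and 3.99 against 4.36, 4.35 and 4.16 in wild-type hearts (exact permutation p = 0.1, the smallest that 3 against 3 allows). It lay below the filter, and when all probe sets were kept limma did not call it (unadjusted p = 0.0189, adjusted p = 0.9999). It is named here for this separation, which 4.67% of the tested probe sets, all of them above the filter, also showed. The share among dim probe sets was not computed. No brighter Vcan probe set separated the genotypes.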
